A study of Mus musculus with 112 samples.

Results

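Long noncoding RNAs (lncRNAs) on the chromatin of mouse embryonic stem cells were compared in 2 pools: RNA made during a 3 h pulse of 4-thiouridine (4sU), read by SLAM-seq, and the whole standing pool, read by total RNA-seq. The members were all lncRNAs present in both deposited tables. They numbered 414, against 492 in the SLAM-seq table, 1279 in the total RNA table and 1624 in any lncRNA table of the study. Of the 414, 408 had a gene symbol, and 404 passed a filter on low values and were tested. The 10 that did not pass are 6330403K07Rik, 2510046G10Rik, Gm11496, Etaa1os, Gm11837, AC117700.1, Gm26737, Gm17322, Gm26764 and 6330410L21Rik.

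The SLAM-seq, total RNA and polyA RNA libraries used here came from SNRNP70-AID cells, made from 46C mouse embryonic stem cells, in which SNRNP70, a protein of the U1 small nuclear ribonucleoprotein (U1 snRNP), carries an auxin-inducible degron and is destroyed when the auxin IAA is added. The main groups were 3 chromatin libraries of newly made RNA without IAA (4sU for 3 h) and 3 chromatin libraries of total RNA at 0 h of IAA (no 4sU). Their treated counterparts were 3 libraries of newly made RNA with IAA (500 µM IAA for 2 h, then IAA with 4sU for 3 h) and 3 of total RNA after 4 h of IAA, so IAA lasted 5 h in one and 4 h in the other. Libraries with and without IAA all came from cells that carry the degron. Other chromatin, nucleoplasm and cytoplasm libraries came from 46C cells, which carry no degron, given a control (scrambled) or U1 antisense morpholino oligonucleotide (AMO, 75 µM, 2 h). The fit for the U1 AMO also took in chromatin libraries with a U2 AMO (75 µM, 2 h) or with both AMOs (2 h, at another labelled dose). They share in its pseudocount and error, and their own changes are not reported here. The labels name 3 replicates in each of these groups and do not say whether they were separate cultures, so a p-value here reflects the spread over these libraries, part or all of which may be technical.

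The steady-state level of an RNA is set by how fast it is made and how fast it is lost. In SLAM-seq, 4sU enters RNA as it is transcribed, and after alkylation it is read as C in place of T, so that reads with T>C changes mark RNA made during the pulse. An RNA that turns over fast is renewed within a short pulse, while a stable one is mostly made of older molecules. Chromatin holds nascent transcripts and also lncRNAs that stay there after synthesis, such as Malat1 of nuclear speckles, Neat1 of paraspeckles and Kcnq1ot1 of an imprinted domain.

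The values of the pools are in different units. SLAM-seq values were T>C reads after scaling by spike-in RNA, and they grow with transcript length and with its content of T, whereas total RNA values were FPKM, which are per length. Each library was therefore put on a log2 scale and centred on its median over the tested genes. A difference of 0 means that a gene stood as far from the median gene in one pool as in the other, and a positive difference means that it stood higher in the newly made pool. Exon lengths were not at hand for these genes, so a long transcript is placed higher by its length alone, and differences between genes hold length as well as turnover. In the response to IAA within a gene, a length that stays the same cancels. Whether transcript lengths changed with IAA was not tested.

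Depth and marker levels were looked at first. The SLAM-seq chromatin libraries held 99102 to 227237 recovered reads with T>C changes, with a median of 28.5 to 90.5 reads per shared gene. In total RNA the summed FPKM of shared genes was 6602 to 8917, and read depth is not given in the sources used here. A single gene, Gm42418, took 47.4% to 58.4% of the SLAM-seq reads and 21.1% to 30.3% of the summed FPKM. Centring on a median does not depend on it. On chromatin at 0 h the 23 lncRNAs listed as markers of embryonic stem cells had summed FPKM of 265 to 343. The Platr genes among them were picked from those present in the total RNA data, so their presence was fixed in advance. Of 7 markers of other cell types, listed without that condition, 4 were present, with summed FPKM of 3.76 to 5.2. The lists differ in size and in how they were made, so these sums only describe the libraries and do not test identity. The 4 chromatin markers were all higher on chromatin than in cytoplasm, from 4.62-fold for Neat1 to 65.9-fold for Kcnq1ot1, but so were 7 of 10 markers of soluble RNA (Gas5 5.13-fold), so the latter did not mark the soluble fractions here. In bulk samples, fewer cells with an RNA and less RNA per cell cannot be told apart.

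Newly made and steady-state levels were ordered differently. Spearman's rho over genes was 0.944 to 0.955 between pairs of newly made libraries and 0.958 to 0.971 between pairs of steady-state libraries, but 0.403 to 0.471 between libraries of different pools. For the group means, Pearson's r was 0.52 and rho 0.45 over 404 genes, which are not independent replicates. The test across genes (limma, adjusted p under 0.05) called 138 genes higher in the newly made pool (34.2% of those tested) and 161 lower (39.9%), and 105 did not pass. The 3 newly made libraries lay wholly above the 3 steady-state libraries in 151 genes (37.4%) and wholly below in 170 (42.1%). The filter let a gene pass through a single pool, as Platr27 did through steady-state RNA, which favours a call against the other pool. How many calls rest on such genes was not tested. With no filter on low values the test called 138 higher and 162 lower. The plot of both levels shows the spread around the line of equal levels.

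**Figure D1:**
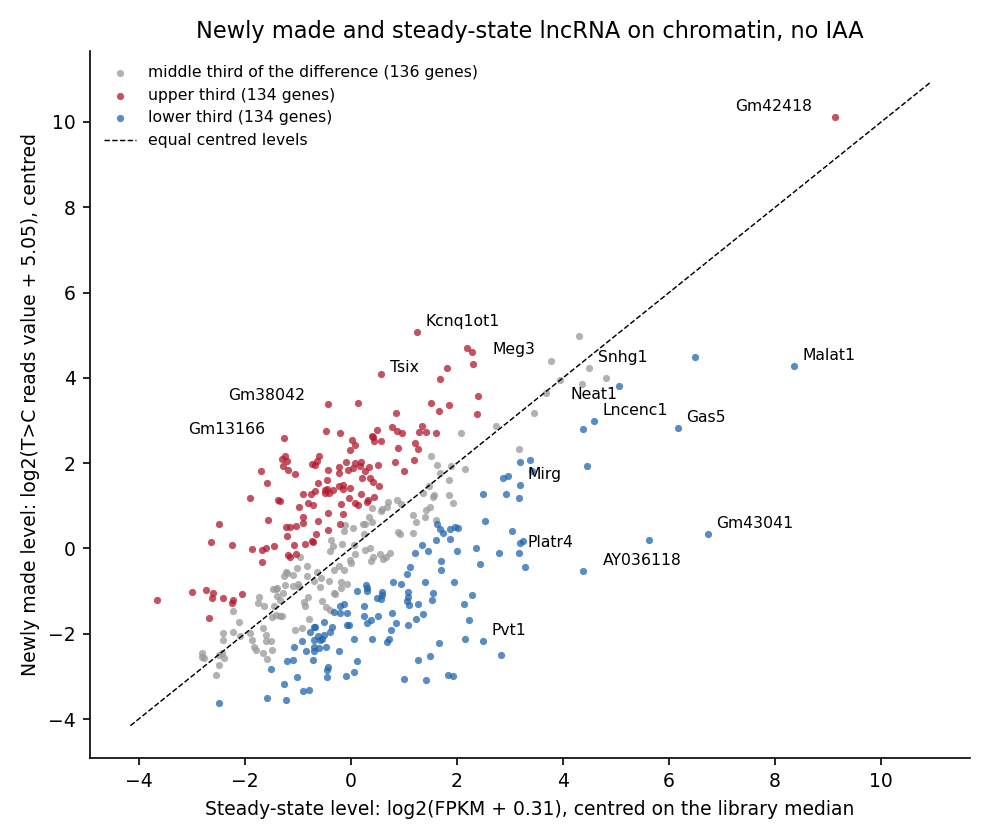
Mean centred level of each of 404 tested lncRNAs in steady-state chromatin RNA (x axis, 3 libraries) and in newly made chromatin RNA (y axis, 3 libraries), both log2, coloured by the rank of the difference; Kcnq1ot1 stands above the line of equal levels and Malat1, Gas5 and Gm43041 below it.

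Kcnq1ot1, the antisense lncRNA of the imprinted Kcnq1 domain, had the largest positive difference among genes with a well-known name. It lies at chr7:143213111-143296547 (GRCm38), a span of 83.44 kb. Its T>C read values were 1893, 2843 and 2115 in the 3 newly made libraries, the second highest of all tested genes, while its FPKM were 10.3, 7.90 and 8.83, which ranked 103. The difference was 3.82 ± 0.12 (log2, SE, n = 3 against 3, limma adjusted p = 3.91e-12), and the groups did not overlap. Tsix, the antisense transcript of Xist (chrX:103431517-103484957, 53.44 kb), had read values of 945, 1325 and 938 and FPKM of 13.7, 9.80 and 13.7. Its difference was 2.30 ± 0.15 (adjusted p = 4.17e-09). T>C reads were not put per length, and the part that length has in the differences of Kcnq1ot1 and Tsix was not tested. Whether the counting used strand is not given, so reads of Tsix and Xist could be mixed. Xist itself had a mean of 0.137 FPKM on this chromatin.

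The other largest positive differences, among genes of at least median level, belonged to 6 predicted genes of the Gm series and 1 RIKEN gene. Gm13166 gave read values of 378, 437 and 388, while its FPKM were 0.77, 0.82 and 3.27, so that a single total RNA library lay apart from the rest. Its difference was 3.85 ± 0.37 (adjusted p = 2.85e-07). Gm38042 gave read values of 615, 788 and 692 against FPKM of 2.99, 2.46 and 2.38, a difference of 3.81 ± 0.13. Gm37274 ranked 12 in the newly made pool and 146 in the steady-state pool (difference 3.53 ± 0.12). Gm37289, Gm43696, Gm38162 and 9230114K14Rik differed by 3.51, 3.42, 3.39 and 3.27, with adjusted p from 3.83e-10 to 1.36e-08. In all 8 genes every newly made library lay above every steady-state library, as the plot of values by library shows.

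**Figure D2:**
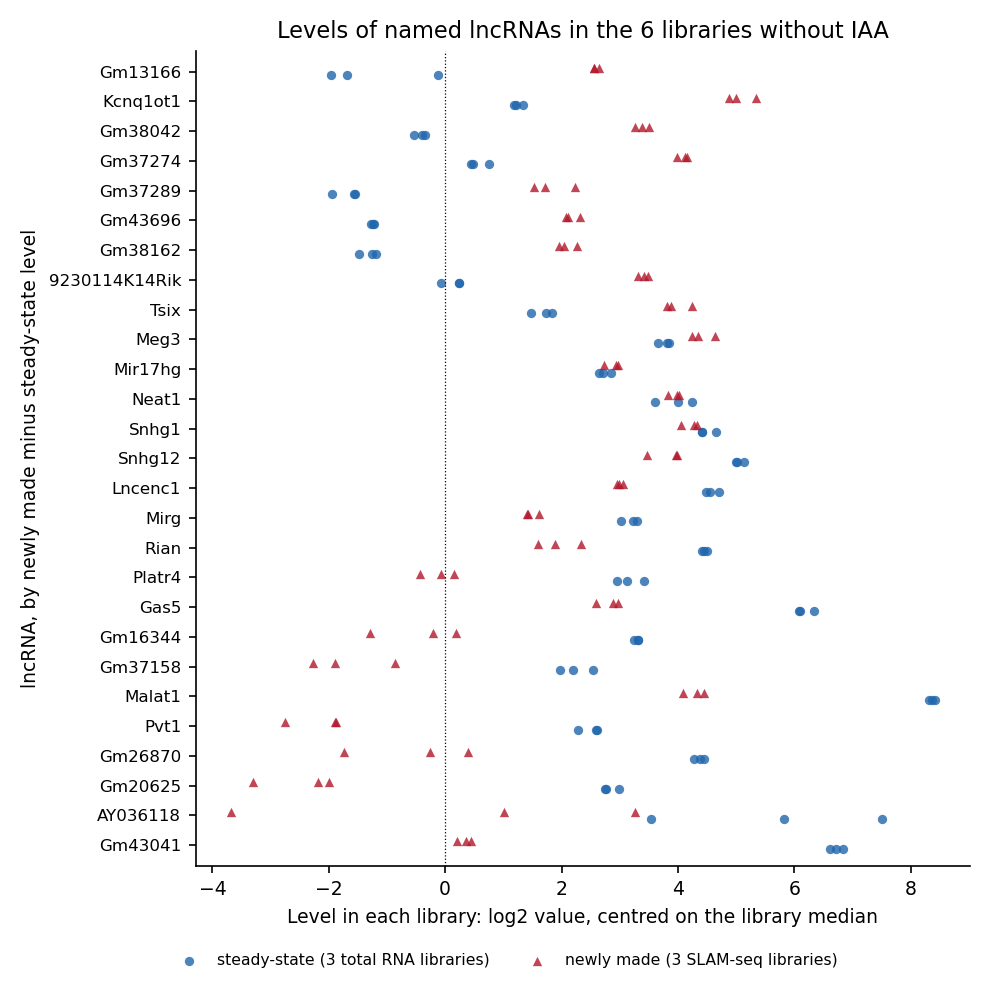
Level of 27 named lncRNAs in each of the 6 libraries without IAA (x axis, log2, centred on the library median; triangles newly made, circles steady-state), ordered by the difference. The 2 groups stand apart at both ends of the list and overlap for Mir17hg and Neat1, and AY036118 spreads widely within each group.

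Malat1, an abundant RNA of nuclear speckles (chr19:5795690-5802672), was a well-known gene on the other side. Its FPKM were 1375, 1151 and 1331, the second highest, and its T>C read values were 1410, 1396 and 1126, which ranked 9. The difference was -4.07 ± 0.12 (adjusted p = 1.07e-12) with no overlap. When libraries were compared by ranks it was -1.24 and still passed, so its size depends on the scale used. Pvt1, a long locus next to Myc (chr15:62037986-62260215, 222.23 kb), had FPKM of 25.1, 17.3 and 23.6. Only 3, 20 and 9 reads with T>C changes were recovered for it, and its difference was -4.66 ± 0.25 (adjusted p = 8.87e-10). The lowest difference of all tested genes belonged to Gm43041, with FPKM of 441, 415 and 386 and read values of 82.6, 84.3 and 72.0. It ranked 3 in the steady-state pool and 181 in the newly made pool (difference -6.40 ± 0.10, adjusted p = 1.18e-15).

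Gm20625 (-5.32 ± 0.29, with 1, 15 and 8 recovered reads), Gm26870 (-4.90 ± 0.45), Gm37158 (-3.91 ± 0.40) and Gm16344 (-3.72 ± 0.31) completed the 8 largest negative differences at this level, together with AY036118. AY036118 differed by -5.42 ± 2.02 (adjusted p = 0.0251), but its libraries spread over 0, 137 and 633 in read values and 48.3, 204 and 708 in FPKM. Without newly made replicate 1 its difference was -3.48 with an adjusted p of 0.148, and it did not pass without total RNA replicate 2 (adjusted p = 0.0571) or 3 (adjusted p = 0.0906) either.

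Among 11 lncRNAs known for retention in the nucleus, 3 were higher in the newly made pool, 7 lower, and 1 did not pass. Their median difference was -1.30, against -0.10 over all tested genes. Beside Kcnq1ot1 and Tsix, Meg3, an imprinted RNA of the Dlk1-Dio3 domain, was higher at 0.63 ± 0.12 (adjusted p = 2.34e-04). Neighbours in that domain went the other way: Rian, a host of small nucleolar RNAs (snoRNAs), had a difference of -2.51 ± 0.17 and Mirg, a host of microRNAs, one of -1.70 ± 0.14. Rian gave FPKM of 90.9, 77.4 and 88.5 and read values of 321, 256 and 197. Firre and Ftx, X-linked nuclear RNAs, differed by -1.64 and -1.30, and Dleu2 by -0.59. Neat1 had a difference of -0.01 ± 0.19 (adjusted p = 0.982), with ranks of 15 and 16 in the pools.

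The snoRNA host genes have introns that are cut out and trimmed into snoRNAs, and their spliced RNAs are known for short lives in the cytoplasm. Of 12 tested genes listed as such hosts, 9 were lower in the newly made pool, 2 higher (Meg3 and Snhg20), and 1 did not pass, with a median difference of -1.22. Gas5, the best known of them, had FPKM of 284, 246 and 316, rank 5, and read values of 502, 422 and 485, rank 32. It differed by -3.35 ± 0.16 (adjusted p = 2.27e-10), and by -1.71 when libraries were compared by ranks. Snhg15 followed with -3.09 ± 0.25, Snhg17 with -1.98 ± 0.17 and Snhg12 with -1.25 ± 0.16. Snhg20 was the exception among the Snhg genes, at 1.10. By position, neither Snhg20 nor Meg3 held a RefSeq snoRNA gene within its span, so neither listed gene called higher is a host by that measure. Snhg1 stood near the threshold at -0.28 ± 0.12 (adjusted p = 0.0460), and it did not pass in 5 of 6 fits that left out a library (adjusted p 0.0518 to 0.173) or with centring on the mean (adjusted p = 0.409). Counted by position, 21 tested genes held a RefSeq snoRNA gene within their span. Their median difference was -1.25 with 16 lower and 1 higher, beside a median of -0.66 with 83 lower and 29 higher in the 164 tested genes that have a RefSeq position and hold none.

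A list of 9 spliced lncRNAs known from the cytoplasm overlaps the snoRNA hosts in Gas5 and the Snhg genes. It had 8 lower members and none higher (median -1.25), and Epb41l4aos, at 0.44, did not pass. Tug1 differed by -1.32 ± 0.16 and Dancr, a spliced RNA of a gene that spans 1.28 kb, by -1.52 ± 0.15. The lncRNAs known from embryonic stem cells were low as a group: 11 of 13 were lower, none was higher, and the median was -1.59. Lncenc1, a highly expressed lncRNA of naive pluripotent cells, had FPKM of 110, 84.8 and 87.4 and read values of 495, 576 and 520 (-1.59 ± 0.12, adjusted p = 2.10e-08). Platr10, Platr4 and Platr21, named as pluripotency-associated transcripts, differed by -3.4, -3.29 and -2.08. Platr27 was also called lower, but with 3, 1 and 3 recovered reads it stood under the pseudocount in each newly made library, so the size of its difference is set by the pseudocount. Platr26 (0.17) and Platr22 (0.30) did not pass. The counts of lower genes in these lists stand beside 39.9% of all tested genes, and the lists share members. Steady-state level is part of the difference, which fell with that level over all tested genes (Pearson's r -0.42). A short transcript is also placed lower by its length alone, since T>C reads were not put per length. The parts that level and length have in these lists were not tested.

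The 206 tested genes with Gm names leaned to the newly made pool, with 96 higher (46.6%) and 62 lower (30.1%) and a median of 0.40, beside 34.2% higher and 39.9% lower of all tested genes. The 117 tested genes with Rik names had 26 higher (22.2%), 50 lower (42.7%), a share near that of all tested genes, and a median of -0.35, which became 0.07 when libraries were compared by ranks. Under centring on the mean, the counts for Gm genes were 103 higher and 57 lower.

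Host transcripts of microRNAs carry hairpins that are cut out to give mature microRNAs. Of 6 tested, 4 were lower in the newly made pool, none was higher and 2 did not pass (median -0.94), beside 39.9% lower and 34.2% higher of all tested genes. Of the 185 tested genes with a RefSeq position, 11 held a RefSeq microRNA hairpin within their span, and strand was not checked. These 11 had a median of -0.59 with 6 lower and 2 higher, beside a median of -0.82 with 93 lower and 28 higher in the 174 that hold none. The values are those of the host transcripts, and no mature microRNA was measured. The sequences below, from RefSeq (GRCm38.p6), show which products these hosts carry. Capitals mark the seed, bases 2 to 8.
mmu-miR-15a-5p: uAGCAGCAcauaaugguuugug
mmu-miR-16-5p: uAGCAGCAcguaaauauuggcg
mmu-miR-92a-3p: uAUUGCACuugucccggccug
mmu-miR-22-3p: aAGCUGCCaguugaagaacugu
mmu-miR-410-3p: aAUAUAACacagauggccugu
mmu-miR-541-5p: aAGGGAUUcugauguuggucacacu
The first pair share the seed AGCAGCA and lie on the minus strand in Dleu2, at chr14:61632075-61632096 and chr14:61631936-61631957. The miR-92a-3p sequence lies in Mir17hg, at chr14:115044476-115044496, and miR-22-3p in Mir22hg, at chr11:75463772-75463793. The last pair lie in Mirg, at chr12:109743764-109743784 and chr12:109742422-109742446, all 4 on the plus strand. These hosts stood at different places. Mir17hg, host of a cluster known for promoting growth, had read values of 503, 460 and 502 and FPKM of 27.3, 22.2 and 28.0, and its difference of 0.14 ± 0.11 did not pass (adjusted p = 0.261). Mir22hg, at -0.35 ± 0.39, did not pass either. Mirg and Dleu2 passed on the lower side, and Mir124a-1hg, host of a microRNA known from neurons, had the lowest value of the list at -3.06 ± 0.19.

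The same comparison in the treated libraries, with IAA, gave similar differences. It called 138 genes higher (34.2%) and 150 lower (37.1%). Of the 138 called higher without IAA, 124 were called higher with IAA (89.9% of either list). Of the 161 called lower, 130 were called lower with IAA (80.7% of the list without IAA and 86.7% of the list with IAA). Of the genes called without IAA, 2 of the higher and 9 of the lower had the opposite sign with IAA. Across 404 genes Pearson's r and Spearman's rho between the differences were both 0.94. The libraries differ between these comparisons, but the assays and the lengths of the genes are shared. Kcnq1ot1 stood at 4.38, Malat1 at -3.74 and Gm43041 at -6.77 with IAA.

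**Figure D3:**
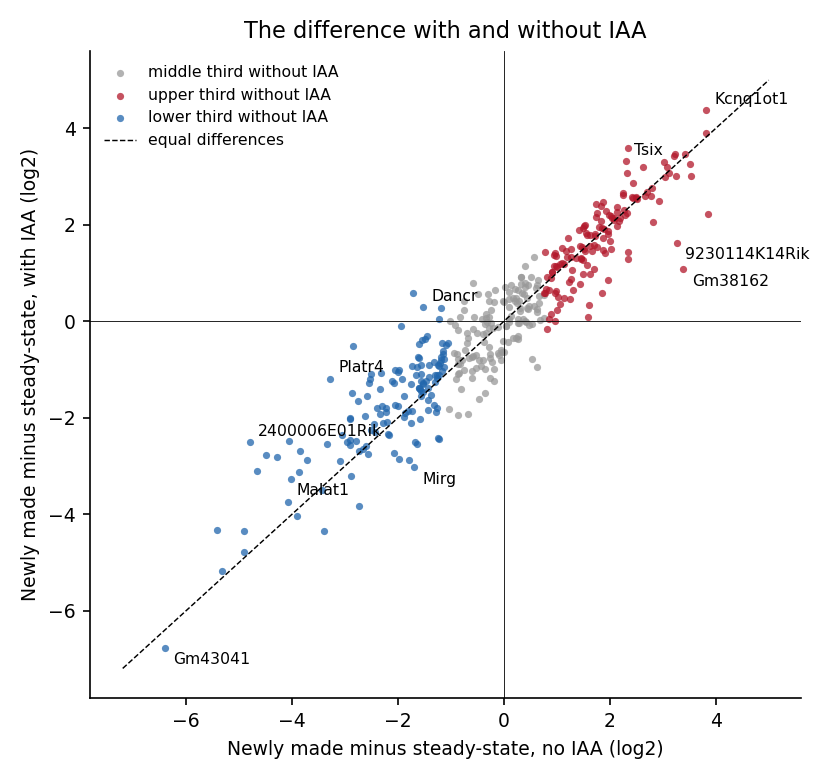
Newly made minus steady-state level (log2, centred) of 404 lncRNAs without IAA (x axis) and with IAA (y axis), coloured by the rank without IAA; most points lie along the line of equal differences, and Platr4, Dancr, Gm38162 and 9230114K14Rik lie off it.

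Whether the pools responded alike to loss of SNRNP70 was tested gene by gene as the response of newly made RNA minus the response of steady-state RNA. A length that stays the same cancels in it. The test called 23 genes higher (5.69%) and 11 lower (2.72%), and 370 did not pass. Some of the 23 had mean newly made values under the pseudocount, where a fall is flattened. A fall in steady-state RNA alone can then give a higher call. Mean read values fell from 3.23 to 0.997 for Platr27 and from 3.83 to 1.54 for 2400006E01Rik. Their centred newly made responses were still 0.27 and 0.30. Others stood far above the pseudocount, such as Tsix (1069) and Gas5 (469). How many of the 23 rest on such flattening was not tested. IAA lasted 5 h for newly made RNA and 4 h for steady-state RNA, so the time of treatment and the pool cannot be told apart. The counts also moved with the processing. Without centring the test called 11 higher and 10 lower, of which 11 and 9 were among those above. Centring on the mean gave 14 and 15, and ranks gave 19 and 19. The count of 23 higher fell to 9, 13 and 13 without total RNA replicates 1, 2 and 3 at 0 h, to 11, 10 and 11 without replicates 1, 2 and 3 at 4 h, and to 14 without treated SLAM-seq replicate 3. The count of 11 lower fell to 7 and 6 without total RNA replicates 1 and 2 at 0 h, to 6, 5 and 6 without replicates 1, 2 and 3 at 4 h, and to 7 without untreated SLAM-seq replicate 3.

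The 4 largest positive differences among genes of at least median level belonged to Platr4, Dancr, Pvt1 and Gm37254. Lower-level genes reached 2.34 (Gm26982), which had 2, 35 and 7 recovered reads without IAA. Platr4 (chr3:41487681-41493199) fell further in steady-state than in newly made RNA. Its FPKM fell from 44.4, 31.4 and 30.1 to 6.66, 4.73 and 3.66, and its read values were 56.6, 73.2 and 44.1 without IAA and 23.3, 50.5 and 28.9 with it. On the centred scale the steady-state response was -2.12 ± 0.23 (adjusted p = 1.88e-05) and the newly made response -0.02 ± 0.23, which differed by 2.10 ± 0.33 (adjusted p = 0.00136). Without centring its newly made RNA also fell, by 0.72 on the log2 scale (adjusted p = 0.0428), beside a fall of steady-state RNA by 2.76. Gm37254 had the same form, with FPKM falling from 8.30, 6.67 and 6.56 to 1.33, 1.52 and 1.40 and read values of 67.3, 82.2 and 94.0 against 40.6, 45.5 and 47.6. Its responses differed by 1.38 ± 0.26 (adjusted p = 0.00685), and without centring its newly made RNA fell by 0.79 (adjusted p = 0.00586) and its steady-state RNA by 2.11.

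Dancr (chr5:74093060-74094337) rose in newly made RNA, by 1.76 with centring (adjusted p = 1.03e-06) and 1.06 without. Its read values went from 53.5, 69.0 and 55.8 to 108, 140 and 141, and its FPKM from 12.5, 9.41 and 9.48 to 6.55, 6.27 and 6.02. Its steady-state response was -0.06 with centring (adjusted p = 0.784) and -0.70 without (adjusted p = 0.00779). The responses differed by 1.81 ± 0.21 (adjusted p = 1.44e-04). Pvt1 had read values of 4.59, 13.9 and 13.2 without IAA and 26.8, 17.7 and 16.4 with it, beside FPKM of 25.1, 17.3 and 23.6 and then 15.3, 13.5 and 9.61. Its responses differed by 1.57 ± 0.36 (adjusted p = 0.0187), which did not pass without total RNA replicate 1 at 0 h (adjusted p = 0.0580) or replicate 3 at 4 h (adjusted p = 0.0538). Tsix, at 1.03 ± 0.21 (adjusted p = 0.00844), was the other member of the nuclear list on this side.

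Among genes of at least median level, the 4 largest negative differences belonged to Gm38162, 9230114K14Rik, Mirg and Gm38336. Gm38162 dropped in the newly made pool, from read values of 246, 333 and 270 to 66.5, 68.2 and 65.6, while its FPKM were 1.45, 0.99 and 1.42 and then 2.49, 1.47 and 1.43. Its steady-state response was 1.02 with centring (adjusted p = 9.94e-04) and 0.38 without (adjusted p = 0.206). The responses differed by -2.32 ± 0.27 (adjusted p = 1.44e-04). 9230114K14Rik (chr5:52190681-52197984) dropped from 719, 741 and 661 to 76.0, 117 and 103 in read values and from 3.69, 3.96 and 4.30 to 1.82, 1.57 and 1.69 in FPKM, a difference of -1.64 ± 0.23 (adjusted p = 7.42e-04). Mirg (chr12:109734981-109749458) dropped from 167, 184 and 200 to 27.6, 26.5 and 23.4 in read values and from 38.9, 35.5 and 31.4 to 15.1, 16.5 and 13.1 in FPKM. Its responses differed by -1.32 ± 0.19 (adjusted p = 8.66e-04). In all 3 the newly made libraries with IAA lay below those without it. Gm38336 rose in steady-state RNA, with FPKM of 4.10, 2.73 and 3.08 and then 9.51, 7.75 and 6.77, and its read values were 107, 86.4 and 63.1 and then 81.2, 99.8 and 50.0. Its difference of -1.32 ± 0.33 (adjusted p = 0.0289) did not pass in 7 of the 12 fits that left out a library, with adjusted p up to 0.0715.

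**Figure D4:**
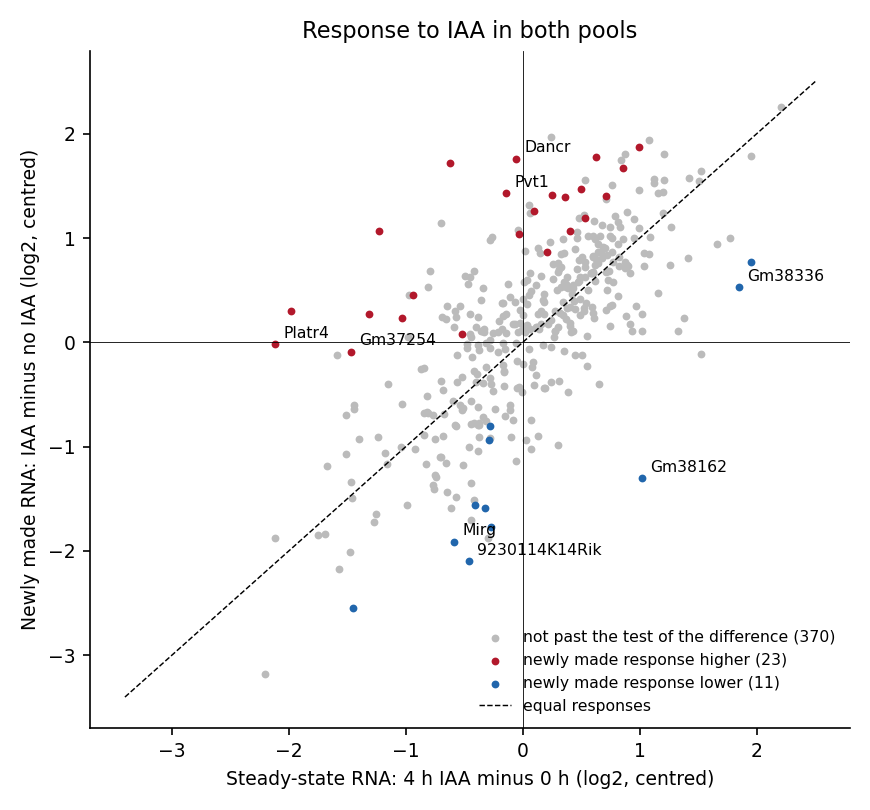
Response to IAA (log2, centred) of 404 lncRNAs in steady-state RNA (x axis, 4 h minus 0 h) and in newly made RNA (y axis, with IAA minus without); red and blue points are the 23 and 11 genes whose responses differed, and the 8 named genes lie off the line of equal responses.

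The responses themselves depended on centring. Newly made RNA had 128 genes higher (31.7%) and 71 lower (17.6%) with centring, and 32 and 144 without it. Steady-state RNA had 88 higher (21.8%) and 54 lower (13.4%) with centring, and 14 and 174 without. Centring moved the median response from -0.44 to 0.26 in newly made RNA and from -0.54 to 0.10 in steady-state RNA, and the values here are relative to the median level of each library. A count test on the recovered reads of newly made RNA (edgeR's quasi-likelihood test) called 63 higher and 76 lower. In the lists, the embryonic stem cell lncRNAs had 8 of 13 lower in newly made RNA and 7 of 13 lower in steady-state RNA, with none higher, and 11 of 13 lower in each without centring. The list of snoRNA hosts had 7 of 12 higher in each pool with centring but 4 and 3 without it.

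Ranked by newly made minus steady-state level, the tested genes were split into an upper group of 134 (differences of 0.76 to 3.85), a middle group of 136 (-1.03 to 0.75) and a lower group of 134 (-6.40 to -1.05). Libraries that took no part in the ranking were then described by group. In 46C cells with the control AMO, chromatin minus soluble RNA (the mean of cytoplasm and nucleoplasm) had a median of 1.79 in the upper group, 0.53 in the middle and 0.26 in the lower. In the upper group 94 of 131 genes were higher on chromatin (71.8%), in the middle group 65 of 135 (48.1%) and in the lower group 52 of 134 (38.8%), beside 60.5% of 1271 genes in the whole table, where 10.4% were lower. With libraries centred, the whole table had 369 higher and 399 lower in place of 769 and 132, and the groups had 63, 24 and 15 higher. Each of the 3 control chromatin libraries placed the upper group above the lower one, by 1.4 to 1.5. In polyA RNA of the degron line at 0 h, chromatin minus whole cell, centred, had medians of 0.52, -0.06 and -0.40, with 43.8%, 34.9% and 22.8% of genes higher, beside 29.2% of the whole table.

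**Figure D5:**
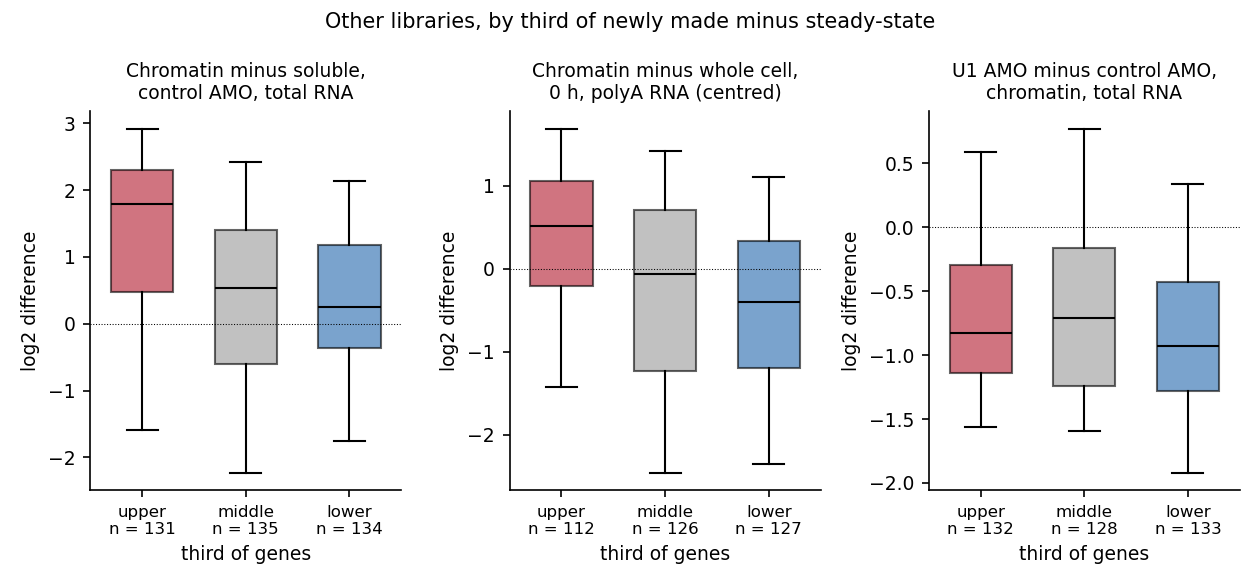
Log2 differences in libraries not used for the ranking, for the upper, middle and lower groups of genes (boxes, quartiles with the median; whiskers, 5th to 95th percentile of genes). Medians step down from 1.79 to 0.26 for chromatin minus soluble RNA and from 0.52 to -0.40 for polyA RNA, and are -0.83, -0.71 and -0.93 for the U1 AMO.

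Levels moved with the groups too. The steady-state level on chromatin is part of the ranking, which by itself places high levels in the lower group. Its median FPKM were 2.76, 2.85 and 7.94 in the upper, middle and lower groups. In cytoplasm, outside the ranking, they were 0.32, 1.33 and 3.91. The share of genes present in the polyA table was 83.6%, 92.6% and 94.8%. A RefSeq entry with the same symbol existed for 22.4%, 52.9% and 61.9%, and 93, 62 and 51 genes had Gm names. Newly made polyA RNA in the cytoplasm, which is no part of the ranking, went against the order on chromatin: the median T>C read values were 36.7, 67.7 and 90.0, with the upper group lowest in each of the 3 libraries. In the nucleoplasm the medians were 56.2, 51.9 and 46.7. Gene span did not follow the difference in the 185 genes that have one (Spearman's rho -0.02), but a span holds introns and is not the length of the RNA. The part that level, transcript length, annotation and polyA selection have in the differences between groups was not tested.

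The U1 AMO did not separate the groups in this way. On chromatin, U1 AMO minus control AMO had medians of -0.83, -0.71 and -0.93 in the upper, middle and lower groups, and -0.78 over the whole table. Of the genes tested, 79 of 132 (59.8%), 66 of 128 (51.6%) and 87 of 133 (65.4%) were lower, beside 54.8% of 1193 in the whole table, and 10, 11 and 3 were higher, beside 5.36%. Centred libraries gave 226 higher and 146 lower in the whole table in place of 64 and 654, and 26, 33 and 24 higher and 15, 18 and 25 lower in the upper, middle and lower groups. The upper minus lower difference of medians was 0.04, 0.12 and 0.19 in the 3 U1 AMO libraries. Among the named genes, the U1 AMO value was -1.05 for Kcnq1ot1, -1.48 for Tsix, -0.70 for Malat1, -2.02 for Platr4 and -1.44 for Mirg, and 1.12 for Snhg12. With libraries centred these were -0.25 for Kcnq1ot1 and 0.09 for Malat1, which did not pass, and -0.69 for Tsix, -1.23 for Platr4, -0.65 for Mirg and 1.92 for Snhg12, which did.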

How the data were processed

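Per the file headers, the authors' SLAM-seq values are a signal: T>C reads after scaling by spike-in RNA. The authors' total and polyA RNA values are FPKM, scaled by spike-in RNA in the fractions, and the headers name no such scaling for whole cells. The submitters' processing notes name CASAVA, TopHat, Cufflinks and build mm10. Counting region, strand and filters were not given in the sources used here. SLAM-seq values stood on whole steps in all 6 chromatin libraries (100% of low values within 0.1 read), which gave the reads. Left out were 1 column whose name gives no fraction and, in the total, AMO and polyA tables, 3, 3 and 2 rows that share an ID.

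Tests used log2(value + pseudocount), the pseudocount being each table's 10th percentile above 0 (5.05 for SLAM-seq, 0.31 for total RNA, 0.16 and 0.29 for AMO fractions and AMO chromatin, 0.11 for polyA RNA). This scale understates changes of low genes. Chromatin libraries were centred on their median. A gene was tested where at least 3 of the 6 untreated libraries reached the pseudocount. These could all be of the same pool. All 12 chromatin libraries were fitted together with limma 3.58.1 in R 4.3.3 (trend, Benjamini-Hochberg adjustment over all genes tested, threshold 0.05), and AMO and polyA tables in their own fits. Each gene had a single estimate of spread, shared by SLAM-seq and total RNA libraries. An SE of a response therefore does not measure the spread of its own pool. Subtracting exon length was planned, but no exon lengths were used here, so none was subtracted. Recovered read counts behind the deposited SLAM-seq values were also tested with edgeR 4.0.16, an alternative chosen after seeing the data. Both tests were tried on simulated data. FPKM carry no depth, so their precision rests on 3 libraries a group.

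Named genes were the 8 largest differences of each sign past the threshold with no overlap of libraries and at least median level, the 4 largest of each sign at that level for the difference of responses, a standing set of well-known lncRNAs, and up to 4 members of each list. Members and lists were chosen with earlier results of these data known. RefSeq positions (GRCm38) were matched by symbol, for 185 of 404 tested genes. Nascent RNA, ChIP and ChIRP samples were not analysed here.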

Additional observations from a re-analysis of the deposited data

Results flagged for a closer look

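The response to IAA differed between newly made and steady-state RNA, by the test of the difference itself, for the 8 genes named above. The difference (log2, newly made minus steady-state response) was 2.10 for Platr4, 1.81 for Dancr, 1.57 for Pvt1, 1.38 for Gm37254, -2.32 for Gm38162, -1.64 for 9230114K14Rik, -1.32 for Mirg and -1.32 for Gm38336. Without centring all 8 kept their sign and passed the threshold, with 2.04 for Platr4 (adjusted p = 0.00396), 1.51 for Pvt1 (adjusted p = 0.0360) and -1.37 for Gm38336 (adjusted p = 0.0369). The treatment times differ between the pools, which cannot be told apart from the pool.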

How the results depend on the processing

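The counts of genes higher or lower in the newly made pool, with and without IAA, stayed within 1.5 times under every alternative run, from 132 to 141 higher and 151 to 161 lower without IAA when each library was left out. The difference of responses was less stable: 36 higher and 18 lower with double the pseudocount, 14 higher with centring on the mean, 11 higher without centring, 19 lower with ranks, and 9 to 25 higher and 5 to 14 lower when each library was left out. edgeR on recovered reads called 63 genes higher in the response of newly made RNA. Upper minus lower group for chromatin minus soluble RNA was 1.63 with a halved pseudocount and 1.26 with double, and 1.45 to 1.6 with each library left out. Signs turned for the genes that follow, and the cause was not tested. Without IAA, Neat1 became 0.16 with centring on the mean and 0.15 with ranks (-0.17 to 0.14 with libraries left out), and Snhg1 0.01 with ranks. With IAA, ranks gave -0.07 for Mir17hg, -0.12 for Dancr and 0.36 for Bvht (-0.28 to 0.05 with libraries left out), and Mir22hg became 0.02 with centring on the mean (-0.43 to 0.33). For the difference of responses, ranks gave -0.29 for Malat1, -0.08 for Rian, -0.19 for Kcnq1ot1 (0.55 with centring) and 0.22 for Snhg12, a called value of -1.17 with centring. Mir17hg became 0.01 with no filter on low values (-0.11 to 0.01 with libraries left out), and Mir22hg ranged from -0.08 to 0.68. Of all other alternatives for single genes, 832 kept direction and side of the threshold, 7 lost the call and 10 gained it; with libraries left out these were 828, 28 and 6. Depth limits genes with few T>C reads: 16 to 65 shared genes had 3 reads or fewer in a library. Whole-gene span and T content as corrections were not run, since fewer than 80% of genes had a position and no genome was used.

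Same-numbered libraries had correlations of -0.125 to 0.451, not every library correlated best with its own number, and the numbers were not taken to pair them. With the replicate block, 137 genes were higher and 160 lower without IAA, and the difference of responses had 18 higher and 10 lower. In this balanced layout the block leaves each gene's difference as it was and moves only its error, so the unchanged group medians (1.53 for chromatin minus soluble RNA and 0.1 for the U1 AMO) say nothing about stability.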

Other observations

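Of 8 tested lncRNAs named for lying opposite another gene, 1 was higher in the newly made pool (Mettl5os, 1.76), 4 were lower and 3 did not pass, beside 34.2% higher and 39.9% lower of all tested genes. Ino80dos was called lower, with FPKM of 16.2, 12.7 and 14.8 and T>C read values of 4.59, 0 and 7.34, which lie near or under the pseudocount, so the size of its difference is set by it. Rab26os differed by -2.35 and Rab10os by -1.67. Whether the counting used strand is not given, so the reads of these genes and of their partners may be mixed.

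Braveheart (Bvht), a lncRNA known from heart development, was detected on chromatin at 1.85, 2.20 and 1.31 FPKM, and its mean in cytoplasm was 14.3 FPKM. Its difference between pools was -0.93 (limma adjusted p = 0.0126), which did not pass without untreated SLAM-seq replicate 1 (adjusted p = 0.0526) or total RNA replicate 2 at 0 h (adjusted p = 0.0695), or with ranks (-0.52, adjusted p = 0.212). The response of the pools to IAA differed in 15 higher and 2 lower genes of the lower group, 4 and 5 of the upper group, and 4 and 4 of the middle group. The ranking and this response share the untreated libraries, so these counts are no separate evidence.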
